A study of Mus musculus with 46 samples.

Results

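Vmn2r3, Vrtn, Tenm4, Extl1 and Fam129a are 5 of the 55487 genes in the count tables of a study of mouse islets and livers with knockouts of mitochondrial genes. None is known as a component of the mitochondrion. All 5 were chosen by their measured values, because they lay strongly higher in 1 or more knockouts than in controls whose level was near 0 or low. The difference between knockout and control in these libraries is therefore the reason they are described, not a finding, and it is given without a test. Vmn2r3 went from between 0 and 4 counts in control islets of the Tfam experiment to between 367 and 1389 counts in Tfam KO islets. In liver it went from between 0 and 88 counts in controls to between 6764 and 21254 counts in Mfn DKO. Vrtn was near 0 in every control and high only in Tfam KO islets, where it reached 350 to 631 counts. Tenm4, Extl1 and Fam129a had a measurable level in control tissue and were higher in all the knockout groups by their means.

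The genes belong to unrelated families. Vmn2r3 encodes a type 2 vomeronasal receptor, a G protein-coupled receptor of the family that sensory neurons of the vomeronasal organ use to detect pheromones. Vrtn encodes vertnin, known from its influence on the number of vertebrae. Tenm4 encodes a teneurin, a large transmembrane adhesion protein of the nervous system that takes part in the guidance of axons and in myelination. Extl1 encodes an exostosin-like glycosyltransferase related to the enzymes that build heparan sulfate chains. Fam129a, now called Niban1, encodes a cytoplasmic protein induced by stress of the endoplasmic reticulum. Cells with failing mitochondria commonly switch on the integrated stress response, in which phosphorylation of the initiation factor eIF2α slows translation and the transcription factor ATF4 raises genes for amino acid synthesis and transport.

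The study measured RNA in 46 mouse libraries of 11 groups from 3 experiments, with deposited counts per gene. The first experiment held islets labelled Tfam control (5 female and 3 male libraries) or Tfam KO (4 female and 2 male); Tfam encodes the protein that packages, transcribes and maintains mitochondrial DNA. The second held islets labelled Clec16a control (4 libraries on a diet given as RFD and 6 on a diet given as HFD) or Clec16a KO (4 on RFD and 5 on HFD); Clec16a encodes a regulator of mitophagy. The third held livers whose descriptions carry the letters AAV, labelled Control (6 libraries), MfnDKO (4) or TfamKO (3); the mitofusins Mfn1 and Mfn2 fuse mitochondria. RNA came from islets after a night in culture and from livers that had been flash frozen. The Cre driver, the content of the viral vector, the age and the strain of the mice, and the meaning of HFD and RFD, are not given in the sources used here. Sex is labelled only for the Tfam islets. In all Clec16a islet libraries the X-linked transcript Xist lay between 302 and 534 normalized CPM and the Y-linked gene Ddx3y was at 0.

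Several facts of the libraries bear on the values. The libraries of Tfam islets were the deepest, with totals of 55223041 to 83342809 counts, those of livers had 41961114 to 56894510 and those of Clec16a islets had 16235173 to 55810879. The Tfam transcript was lower in every library labelled Tfam KO than in every control of its tissue, at 16.02 to 18.9 normalized CPM against 37.8 to 44.7 in islets and at 13.1 to 15.9 against 54.2 to 66.2 in liver. Mfn1 and Mfn2 were lower in every Mfn DKO library, at means of 20.2 and 38.1 normalized CPM against 80.8 and 157 in control livers. The Clec16a transcript overlapped between libraries labelled Clec16a KO and their controls, so it does not check that label. The insulin-led set of 5 β-cell markers summed to between 91277 and 324905 CPM in islets, and the albumin-led set of 5 hepatocyte markers to between 21435 and 133714 CPM in livers. A library labelled Clec16a KO on HFD, replicate 4, stood apart from the other 4 of its group for all 5 genes. Among the 3 liver Tfam KO libraries, replicate 3 had the lowest level of Vmn2r3, Tenm4, Extl1 and Fam129a.

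All positions are on mouse build GRCm38 from GENCODE M21. Vmn2r3 (ENSMUSG00000091572) lies on the minus strand at chr3:64257215-64289709, Vrtn (ENSMUSG00000071235) on the plus strand at chr12:84641019-84651455, Tenm4 (ENSMUSG00000048078) on the plus strand at chr7:96171246-96911093, Extl1 (ENSMUSG00000028838) on the minus strand at chr4:134356372-134383850 and Fam129a (ENSMUSG00000026483) on the plus strand at chr1:151571186-151721939. All 5 are annotated as protein-coding and each lies on a chromosome of its own. Their longest coding transcripts have 7 exons and 5149 bases (Vmn2r3), 3 exons and 3440 bases (Vrtn), 33 exons and 10930 bases (Tenm4), 11 exons and 4126 bases (Extl1) and 14 exons and 6531 bases (Fam129a).

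Because the 5 genes were higher than control together in several groups, their promoter windows were searched for the core bound by ATF4 with C/EBP partners (TGATGNAA), the antioxidant response element core (TGACNNNGC) and the E-box (CACGTG), on both strands. All 5 genes matched an entry of the RefSeq promoter table (GRCm38.p6, 250 bases before to 50 after each start site), with 3 start sites for Vrtn and 2 for Tenm4. The only matches were to TGACNNNGC, in 1 window of Vrtn and 1 of Tenm4. Over all 32851 promoters, 12.4% held that pattern, 3.97% held TGATGNAA and 7.15% held CACGTG, and no window of the 5 genes held more than 1 pattern. The Vmn2r3 window is shown because this gene had the widest span of levels, and the other 2 because they hold a match, which is in capitals. The Vmn2r3 window starts from a RefSeq start site 2292 bases inside the GENCODE gene, on the minus strand at chr3:64287368-64287667. The Vrtn window is on the plus strand at chr12:84642646-84642945, with the match beginning 70 bases before the start site (offset -70). That site lies 1877 bases inside the GENCODE gene. The Tenm4 window is on the plus strand at chr7:96211421-96211720, with the match beginning at offset 35 after its start site. That site lies 40425 bases inside the GENCODE gene, and the Tenm4 window 2 bases from the gene's own start held no match. The only Extl1 window starts from a site 11303 bases inside its gene.
Vmn2r3: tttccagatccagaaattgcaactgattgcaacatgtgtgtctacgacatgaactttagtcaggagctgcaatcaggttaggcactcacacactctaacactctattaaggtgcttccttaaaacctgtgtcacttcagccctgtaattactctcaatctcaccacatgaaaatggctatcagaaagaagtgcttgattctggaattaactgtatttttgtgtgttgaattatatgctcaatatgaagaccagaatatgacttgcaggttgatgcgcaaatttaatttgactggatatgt
Vrtn: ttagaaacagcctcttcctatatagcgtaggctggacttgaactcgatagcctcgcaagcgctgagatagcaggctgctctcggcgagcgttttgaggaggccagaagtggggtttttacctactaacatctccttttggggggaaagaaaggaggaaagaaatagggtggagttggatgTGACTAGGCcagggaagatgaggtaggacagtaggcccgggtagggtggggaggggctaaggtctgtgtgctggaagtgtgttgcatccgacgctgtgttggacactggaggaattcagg
Tenm4: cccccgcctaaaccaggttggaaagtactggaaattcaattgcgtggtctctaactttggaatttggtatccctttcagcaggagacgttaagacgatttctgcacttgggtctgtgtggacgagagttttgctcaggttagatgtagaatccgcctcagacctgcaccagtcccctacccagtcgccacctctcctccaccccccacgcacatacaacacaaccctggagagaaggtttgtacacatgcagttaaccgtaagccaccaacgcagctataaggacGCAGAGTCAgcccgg
A match describes letters in the window only, and factor binding was not measured in these libraries.

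Vmn2r3 had the widest range of the 5 genes, from 0 counts in 17 of the 24 control libraries to 21254 counts in an Mfn DKO liver. In the Tfam experiment the female controls held 0, 0, 0, 4 and 2 counts and the male controls 0 counts in each of the 3. The female Tfam KO islets held 581, 381, 367 and 476 counts, at 6.84 ± 1.79 normalized CPM (counts scaled to the library's size after TMM correction; SD, n = 4), and the male ones 1389 and 1076 counts, at 14.96 ± 1.09 (SD, n = 2). Every KO islet library lay above every control, by a wide gap. The fitted log2 fold change over both sexes was 9.49 (SE 0.44), and the ratio of summed counts per depth was 846, with a 95% exact interval of 389 to 2308 that covers counting error only. Female control replicate 4 held 4 of the 6 control counts, and without it the log2 fold change was 10.74. Against male controls, whose libraries all held 0, Vmn2r3 was at least 371-fold higher, taking 3 counts per library as the floor.

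Vmn2r3 was far lower in the Clec16a islets. The controls held 0 counts in all 6 HFD libraries and 0, 0, 0 and 6 in the RFD libraries. The KO libraries held 5, 28, 14, 0 and 6 counts on HFD and 16, 5, 12 and 17 on RFD. On RFD every KO library lay above every control, at 0.437 ± 0.319 against 0.0381 ± 0.0762 normalized CPM (SD, n = 4 each), while on HFD replicate 4 of the KO sat at 0 with the controls. The RFD log2 fold change of 3.16 (SE 1.23) rested on control replicate 4. Without it the value was 6.75, which is set by the fit's prior count because the other RFD controls were at 0. On HFD the KO mean was at least 4.67-fold above the floor of 3 counts per control library.

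The highest levels of Vmn2r3 were in liver. Control livers held 0, 10, 6, 0, 10 and 88 counts, with the lowest, median and highest library at 0, 0.159 and 2.19 normalized CPM. Mfn DKO livers held 12669, 14197, 21254 and 6764 counts, at 272 ± 127 normalized CPM (SD, n = 4). Tfam KO livers held 17884, 6398 and 846 counts, at 132 ± 143 (SD, n = 3), so that the highest of the 3 was about as high as Mfn DKO livers and the lowest was well under them. Both knockouts lay above all controls. The log2 fold changes were 9.24 (SE 1.21) for Mfn DKO and 8.19 (SE 1.19) for Tfam KO, and control replicate 6 held 88 of the 114 control counts. Without that control they were 11.19 and 10.13, and without Tfam KO replicate 1 the latter was 6.83. The difference between the 2 liver knockouts, Tfam KO minus Mfn DKO, was -1.05 on the log2 scale (SE 1.11), smaller than its SE.

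**Figure D1:**
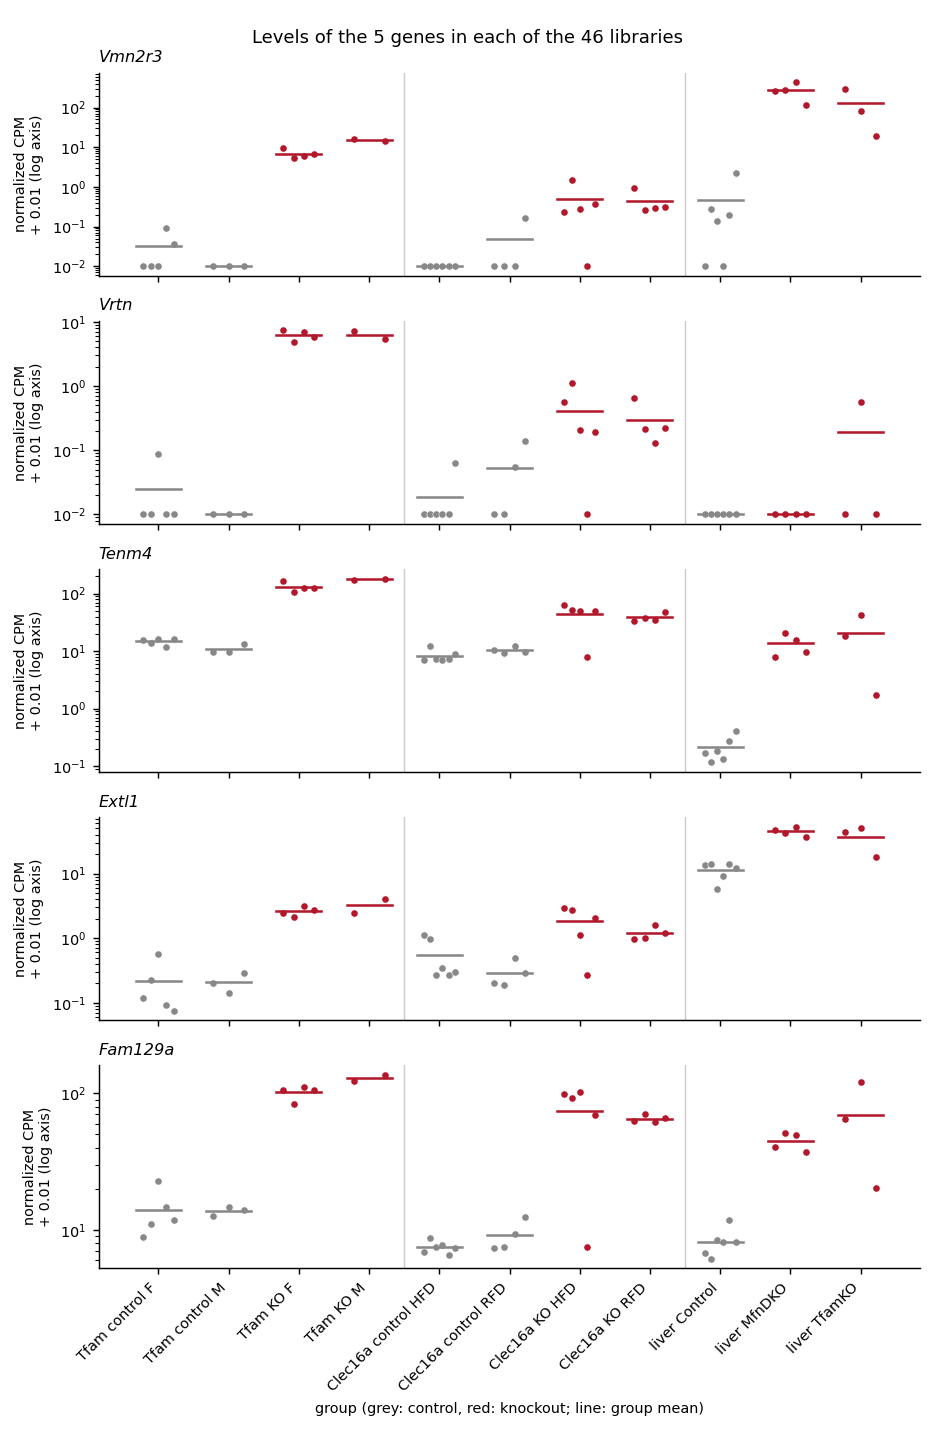
Level of each of the 5 genes in each library, as normalized CPM plus 0.01 on a log axis, by group; points are libraries, lines are group means, grey marks controls and red marks knockouts, and a point at 0.01 is a count of 0. Vmn2r3 is near 0 in islet controls and reaches 429 in an Mfn DKO liver, Vrtn is high only in Tfam KO islets, and 1 Clec16a KO HFD library lies with the controls in every panel.

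Vmn2r3 was set against its own family, since vomeronasal receptors are many and alike in sequence. The tables hold 592 other rows whose symbols begin with Vmn1r or Vmn2r, of which 127 had a count in any library and 7 reached 1 normalized CPM in any. The highest single value among them was 6.15, for Vmn2r20 in a control liver, against 429 for Vmn2r3. Summed over all 592, the family lay at 2.06 to 3.10 CPM in female Tfam KO islets and at 2.80 to 3.83 in their female controls, whereas in males it lay at 2.96 to 3.55 in Tfam KO islets and at 2.18 to 2.82 in controls. In the Clec16a islets the family sum overlapped between KO and control on both diets. In liver it lay at 3.31 to 4.85 CPM in Mfn DKO and 4.65 to 6.03 in Tfam KO against 7.08 to 17.0 in controls. Few of these rows passed the filter on low counts: 6 in the Tfam islets, 2 in each Clec16a comparison and 8 in each liver comparison.

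None of those tested receptors was called higher by edgeR's quasi-likelihood test in any of the 5 knockout comparisons, a call being a Benjamini-Hochberg adjusted p of 0.05 or less over all genes. Among all genes 11.6% were called higher in Tfam KO islets, 3.99% and 5.62% in Clec16a KO on RFD and HFD, 5.23% in Mfn DKO liver and 18.1% in Tfam KO liver. With so few receptors tested, nothing is read from the absence of higher calls. At an unadjusted p under 0.05 the count called higher was 1, in Clec16a KO on RFD, and 0 in the other 4; DESeq2 called 0 in each. Lower calls numbered 3 in Mfn DKO liver (Vmn1r51, Vmn1r-ps32 and Vmn1r90) and 3 in Tfam KO liver (Vmn1r51, Vmn2r57 and Vmn1r90), each of 8 tested, where 4.64% and 11.3% of all genes were called lower. Of these, Vmn1r51 fell by 2.26 (SE 0.33, adjusted p = 0.0019, edgeR) in Mfn DKO liver on the log2 scale, from 2.53 ± 0.745 (SD, n = 6) to 0.528 ± 0.207 CPM (SD, n = 4). The call of Vmn1r90 in Mfn DKO liver was lost when any 1 of the 4 Mfn DKO libraries was left out, at adjusted p = 0.056 to 0.073 (edgeR). Of the 4 signalling partners of vomeronasal neurons, 3 were tested in Tfam islets and 2 in each other comparison. In Tfam KO islets 2 were called higher and 0 lower, where 11.6% of all genes were called higher. In the other 4 comparisons edgeR and DESeq2 called 0, with 1 higher at an unadjusted p under 0.05, in Tfam KO liver. With at most 3 partners tested, nothing is read from them as a set. Gnai2, a G protein α subunit found in most cells, rose by 0.91 (SE 0.06, adjusted p = 1.39e-08, edgeR) in Tfam KO islets. Gng8, a G protein γ subunit, rose by 2.89 (SE 0.66, adjusted p = 0.0049, edgeR) there, from 0.0433 ± 0.0443 to 0.327 ± 0.214 CPM. Gnao1, the G protein α subunit of the neurons that carry type 2 receptors, differed by -0.09 (SE 0.06, adjusted p = 0.38, edgeR) there, at 462 against 490 CPM. The 3 markers of olfactory neurons summed to between 0.581 and 5.16 CPM over all 46 libraries, and Omp, the marker protein of mature ones, stayed between 0.0414 and 0.662 CPM.

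**Figure D2:**
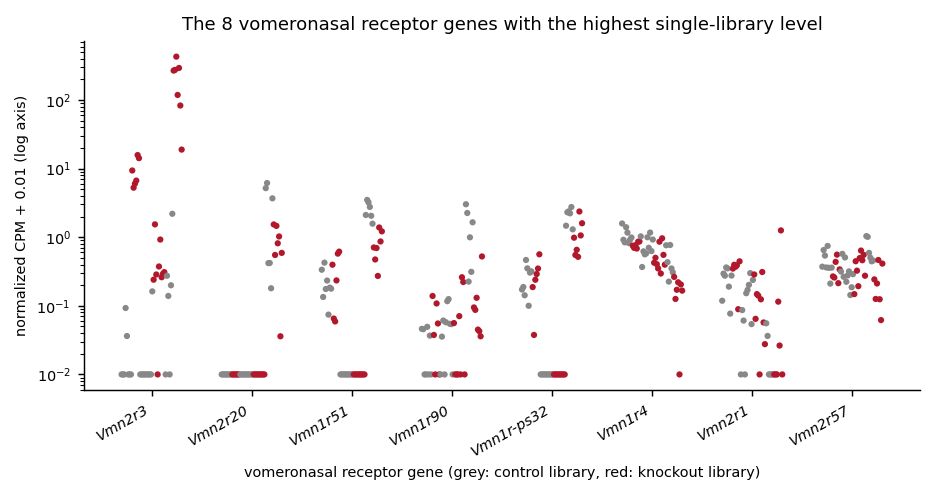
Normalized CPM plus 0.01 (log axis) of the 8 vomeronasal receptor genes with the highest value in any library; each point is 1 of 46 libraries, grey for control and red for knockout, in the same order of groups from left to right within each gene. Only Vmn2r3 exceeds 10 CPM, whereas the other 7 stay at or below 6.15 CPM and their highest values are mostly in control livers.

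Little of the Vmn2r3 transcript sequence is shared with other genes. Of the 17781 distinct 50-base stretches in its GENCODE transcripts, 3.09% also occur in transcripts of another gene, most often in Vmn2r2, a receptor gene 115287 bases away on the same chromosome. Vmn2r2 itself reached at most 0.143 CPM in any library. The same share was 0% for Vrtn and Fam129a, 0.970% for Extl1 and 4.21% for Tenm4, where the shared stretches lie in C230038L03Rik on the opposite strand. How the deposited counts treated reads that fit several genes, or the strand, is not given in the sources used here. The mitochondrially encoded mt-Nd6 lay at 3.14 to 14.3 normalized CPM in Clec16a control islets on HFD. It lay at 419 to 748 in female Tfam control islets and at 1062 to 1838 in control livers. For mt-Cytb those islets went the other way, at 4335 to 7838 against 2124 to 2770. The cause was not tested, and levels compared between experiments carry this limit.

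Vrtn was close to absent outside Tfam KO islets. Female Tfam controls held 0, 0, 4, 0 and 0 counts and male controls 0 in each of the 3, whereas female KO islets held 452, 350, 426 and 410 and male KO islets 631 and 409. In normalized CPM the KO groups lay at 6.22 ± 1.14 (SD, n = 4) and 6.27 ± 1.24 (SD, n = 2), and the sexes overlapped. The log2 fold change over both sexes was 9.32 (SE 0.43), and the ratio of summed counts per depth was 796 (95% exact interval 311 to 2925, counting error only). All 4 control counts were in female control replicate 3. Without it the log2 fold change was 11.74, a value set by the fit's prior count because all other controls were at 0. Against the male controls, all at 0, Vrtn was at least 156-fold higher, at the floor of 3 counts per library.

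In the Clec16a islets Vrtn was listed at a few counts only. Controls held at most 2 counts on HFD and 0, 0, 1 and 5 on RFD, and KO libraries held 12, 20, 10, 0 and 3 on HFD and 11, 4, 5 and 12 on RFD. The groups overlapped on both diets and Vrtn did not pass the filter on low counts there. The summed counts per depth were 5.195 times higher in KO on RFD (95% exact interval 2.14 to 15.2) and 30.03 times on HFD (7.85 to 256), for counting error only. In liver Vrtn had 0 counts in all 6 controls and all 4 Mfn DKO libraries, and 0, 42 and 0 in Tfam KO. The Mfn DKO livers without a Vrtn count held 6764 or more counts of Vmn2r3.

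Tenm4 had a measurable level in every library. Tfam control islets lay at 15.5, 14.1, 16.3, 12.02 and 16.5 normalized CPM in females and 9.60, 9.73 and 13.3 in males. Tfam KO islets lay at 168, 105, 125 and 126 in females and 171 and 183 in males, all above every control. The log2 fold change was 3.46 (SE 0.16). On RFD the Clec16a controls lay at 10.3, 9.19, 12.1 and 9.50 and the KO libraries at 33.7, 37.9, 35.2 and 47.8, without overlap, for a log2 fold change of 1.92 (SE 0.37). On HFD the 6 controls ran from 6.93 to 12.3 with a median of 7.23, and the KO libraries lay at 63.2, 51.5, 49.4, 7.93 and 49.2, where the single low value is replicate 4. The HFD log2 fold change was 2.41 (SE 0.32), and 2.68 without replicate 4.

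In liver Tenm4 began from almost nothing. The 6 controls ran from 0.106 to 0.398 normalized CPM with a median of 0.166. Mfn DKO livers lay at 7.96, 21.1, 15.8 and 9.56 and Tfam KO livers at 18.4, 43.1 and 1.74, again all above the controls. The log2 fold changes were 6.04 (SE 0.71) and 6.68 (SE 0.74), and the latter was 5.62 without Tfam KO replicate 2. Even so, the mean of Mfn DKO livers, 1.71 ± 0.768 TPM (a unit that allows for transcript length; SD, n = 4), was close to that of female Tfam control islets, 1.51 ± 0.323 TPM (SD, n = 5). Tenm4 spans 739848 bases and 11 annotated genes lie within it, 9 of them on the opposite strand; the highest of the 11 reached 0.602 CPM in any library.

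The relatives of Tenm4 were read beside the share of all genes called. Among the 9 listed genes, the other 3 teneurins and the latrophilins and FLRT proteins that bind teneurins, 1 was called higher and 1 lower in Tfam KO islets, 1 and 1 in Clec16a KO on each diet, 0 and 0 in Mfn DKO liver and 2 and 0 in Tfam KO liver. These were of 9, 8, 8, 7 and 7 tested, where 20.9%, 7.52%, 9.57%, 9.87% and 29.3% of all genes were called, and with at most 2 calls a comparison nothing is read from the list as a whole. In Mfn DKO liver 3 were higher at an unadjusted p under 0.05 and DESeq2 called 2. Flrt1 rose by 1.37 (SE 0.07, adjusted p = 1.89e-09, edgeR) in Tfam KO islets, from 22.8 ± 2.73 (SD, n = 8) to 59.1 ± 4.25 CPM (SD, n = 6), and Adgrl1 fell by 0.42 (SE 0.06, adjusted p = 1.13e-04, edgeR) there. Adgrl2 rose by 0.58 (SE 0.12, adjusted p = 0.0049, edgeR) in Clec16a KO on HFD. The median log2 fold change of the tested relatives was 0.14 in Tfam KO islets, 0.12 and 0.06 in Clec16a KO on RFD and HFD, 0.57 in Mfn DKO liver and 0.74 in Tfam KO liver, against -0.01 to 0.03 over all genes.

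Extl1 was the gene whose control livers lay above every islet group by TPM. Tfam control islets lay at 0.109, 0.214, 0.568, 0.0829 and 0.0657 normalized CPM in females and 0.193, 0.134 and 0.280 in males, and Tfam KO islets at 2.45, 2.13, 3.15 and 2.75 in females and 2.42 and 3.995 in males. The groups did not overlap, and the log2 fold change was 3.79 (SE 0.36). In females it was 3.68 (SE 0.46), and 4.48 without control replicate 3. On RFD the Clec16a controls lay at 0.192, 0.178, 0.485 and 0.279 and the KO libraries at 0.972, 1.004, 1.60 and 1.18. The log2 fold change there was 2.11 (SE 0.63). On HFD the 6 controls ran from 0.255 to 1.12 with a median of 0.313, the KO libraries lay at 2.95, 2.67, 1.10, 0.262 and 2.07, and replicates 3 and 4 fell within the range of the controls. The HFD log2 fold change was 1.75 (SE 0.50), and 2.04 without replicate 4.

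In liver the 6 controls ran from 5.86 to 14.02 normalized CPM of Extl1 with a median of 12.96, above all islet groups. Mfn DKO livers lay at 47.1, 43.3, 53.4 and 37.0 and Tfam KO livers at 43.8, 50.1 and 17.9. All 7 were above the controls, with log2 fold changes of 1.97 (SE 0.28) and 1.70 (SE 0.30). The lowest Tfam KO liver, replicate 3, lay just above the highest control, 17.9 against 14.02.

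Of the 28 listed enzymes that build or modify heparan sulfate, 26 were tested in Tfam islets, 24 in each Clec16a comparison and 21 in each liver comparison. Calls higher and lower numbered 1 and 4 in Tfam KO islets, 2 and 1 in Clec16a KO on RFD, 2 and 2 on HFD, 0 and 1 in Mfn DKO liver and 2 and 4 in Tfam KO liver. Against the shares of all genes called, 20.9%, 7.52%, 9.57%, 9.87% and 29.3%, no departure of the list was tested. At an unadjusted p under 0.05 the number higher in Mfn DKO liver was also 0, and DESeq2 called 0. Glce, the epimerase that turns glucuronic acid to iduronic acid in the chain, rose by 0.57 (SE 0.06, adjusted p = 3.20e-06, edgeR) in Tfam KO islets and by 0.62 (SE 0.11, adjusted p = 0.0020, edgeR) in Clec16a KO on HFD. Hs3st5, a 3-O-sulfotransferase, fell by 2.41 (SE 0.44, adjusted p = 0.0010, edgeR) in Tfam KO islets. Ndst1, an N-deacetylase and N-sulfotransferase, fell by 0.83 (SE 0.20, adjusted p = 0.0088, edgeR) in Tfam KO liver. The median log2 fold change of the list ran from -0.19 in Tfam KO liver to 0.11 in Clec16a KO on HFD.

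Fam129a had the narrowest range of fold differences of the 4 genes fitted in all 5 comparisons. Tfam control islets lay at 8.87, 11.1, 22.9, 14.8 and 11.8 normalized CPM in females and 12.6, 14.7 and 14.03 in males, and Tfam KO islets at 105, 83.8, 112 and 106 in females and 122 and 137 in males. The log2 fold change was 3.004 (SE 0.17), without overlap. On RFD the Clec16a controls lay at 7.33, 7.51, 9.39 and 12.4 and the KO libraries at 62.7, 70.6, 61.8 and 65.4, without overlap, for 2.82 (SE 0.45). On HFD the 6 controls ran from 6.51 to 8.66 with a median of 7.38 and the KO libraries lay at 99.4, 92.9, 102, 7.44 and 69.0. That log2 fold change was 3.32 (SE 0.39), and 3.61 without replicate 4.

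In liver the 6 controls ran from 6.15 to 11.8 normalized CPM of Fam129a with a median of 8.07. Mfn DKO livers lay at 40.6, 51.0, 49.5 and 37.5 and Tfam KO livers at 65.3, 121 and 20.2, all above the controls. The log2 fold changes were 2.44 (SE 0.35) and 3.07 (SE 0.37), and the latter was 2.39 without Tfam KO replicate 2. Of its family, Fam129b and Fam129c were tested in all 5 comparisons. The only call was Fam129b in Clec16a KO on HFD, which fell by 0.33 (SE 0.07, adjusted p = 0.0083, edgeR), from 123 ± 7.10 (SD, n = 6) to 97.8 ± 5.61 CPM (SD, n = 5). Neither was called higher, with 1 higher at an unadjusted p under 0.05, in Mfn DKO liver, and 0 by DESeq2.

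**Figure D3:**
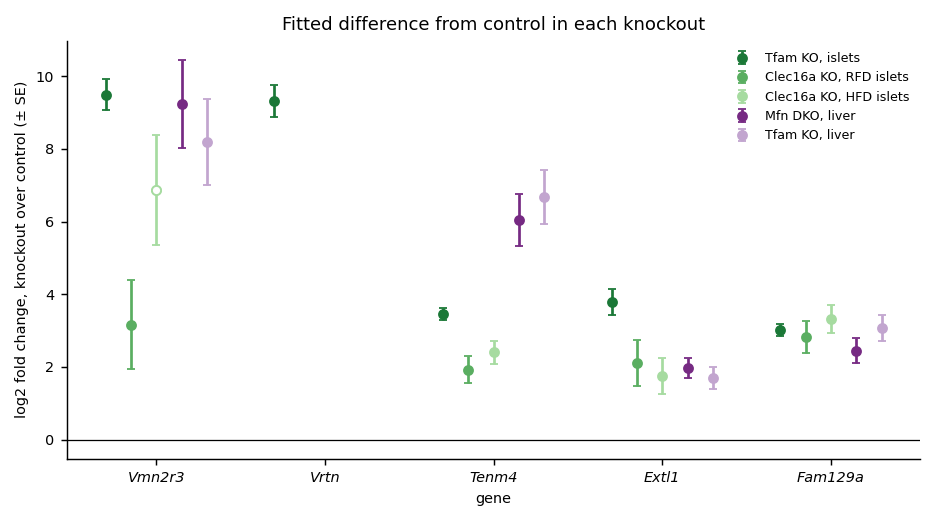
Fitted log2 fold change of knockout over control (vertical axis, bars are ± SE) for each gene in the 5 comparisons, coloured by comparison; Vrtn passed the filter on low counts only in Tfam islets. The value with an open point, Vmn2r3 in Clec16a KO on HFD, has controls all at 0 and depends on the fit's prior count. Fam129a stays between 2.44 and 3.32 in every comparison, while Vmn2r3 reaches 9.49 in Tfam KO islets.

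The counts of members that lay apart from controls are given beside the background of all genes, and nothing is read from them, since these comparisons chose the members. In Tfam KO islets all 5 had every KO library above every control, as did 4.83% of all tested genes, and 20.9% of genes were called in either direction. For Clec16a KO on RFD it was 4 of the 4 tested, against 7.74% of genes, with 7.52% called. On HFD it was 0 of 4, against 1.24%, with 9.57% called. For Mfn DKO liver it was 4 of 4, against 8.95%, with 9.87% called, and for Tfam KO liver 4 of 4, against 10.7%, with 29.3% called.

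The order of the groups, by the authors' TPM, differed between genes. Vmn2r3 was highest in Mfn DKO liver, at 41.4 ± 19.7 TPM (SD, n = 4), and Tfam KO liver, at 25.1 ± 25.3 (SD, n = 3), whose ranges overlapped, then in male Tfam KO islets (2.36 ± 0.0655, SD, n = 2) and female ones (1.11 ± 0.316, SD, n = 4), each below the group before without overlap. Vrtn was highest in female and male Tfam KO islets, at 4.85 ± 0.990 (SD, n = 4) and 4.75 ± 0.728 TPM (SD, n = 2), which overlapped, and every other group was at or below 0.267 TPM. Tenm4 was highest in male and female Tfam KO islets, at 23.2 ± 2.14 (SD, n = 2) and 17.6 ± 3.99 TPM (SD, n = 4), with overlap. Extl1 was highest in Tfam KO and Mfn DKO liver, at 30.3 ± 18.5 (SD, n = 3) and 27.5 ± 4.46 TPM (SD, n = 4), with overlap, and next in control liver, at 5.68 ± 1.64 (SD, n = 6). Fam129a was highest in male Tfam KO islets, at 48.3 ± 5.998 TPM (SD, n = 2), above the female ones at 38.8 ± 5.11 (SD, n = 4), and the next 4 groups, all knockouts, overlapped one after the other. Among the genes, in the same female Tfam KO islets, Fam129a was the most abundant by TPM and Vmn2r3 the least.

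The rule that chose the genes did not name sex or diet, and 6 contrasts of these were tested. The interactions compare rises in the same libraries that chose the genes, so they are given as description. Vmn2r3 and Vrtn passed the filter on low counts through KO libraries, where they are high. Members gave 27 fits, of which 6 compare or include control groups of Vmn2r3 or Vrtn with 0 to 6 counts in all and are not read. In the other 21 tests, edgeR's quasi-likelihood test called 0 after adjustment over all genes, with 4 at an unadjusted p under 0.05, and DESeq2 called 1. Among all genes, edgeR called 1.53% for male against female control islets, 0.0608% for male against female Tfam KO islets and 0.0% of 19752 for the interaction of genotype with sex, the last with 1230 genes at an unadjusted p under 0.05 and 34 called by DESeq2. Vmn2r3 was higher in both male Tfam KO libraries than in all 4 female ones, 14.2 and 15.7 against 5.26 to 9.38 normalized CPM, a log2 difference of 1.13 (SE 0.32, adjusted p = 0.27, edgeR). This is the member test that DESeq2 called, with an adjusted p of 0.0026. With no filter on low counts edgeR's adjusted p was 0.044, and over all the alternatives it ran up to 0.82. Tenm4 showed a log2 interaction of genotype with sex of 0.89 (SE 0.23, adjusted p = 0.54, edgeR), with control islets lower in males by -0.45 (SE 0.15, adjusted p = 0.16) and KO islets higher in males by 0.43 (SE 0.17, adjusted p = 0.50). None of these passed the threshold in edgeR with the filter, and the male KO group has 2 libraries. Vrtn in KO islets differed between the sexes by 0.01 (SE 0.37, adjusted p = 0.998, edgeR).

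Diet gave no called difference for Tenm4, Extl1 or Fam129a, nor for Vmn2r3 in KO islets. Vrtn was not tested for diet, and the other diet fits of Vmn2r3 are not read. Among all genes, edgeR called 0.0406% for HFD against RFD in Clec16a controls, 0.0116% in Clec16a KO and 0.0% of 17254 for the interaction of genotype with diet, the last with 406 genes at an unadjusted p under 0.05 and 20 called by DESeq2. Fam129a differed between diets by -0.31 (SE 0.40, adjusted p = 0.999, edgeR) in controls and 0.19 (SE 0.39, adjusted p = 0.9998, edgeR) in KO. Tenm4 differed by -0.30 (SE 0.34) and 0.19 (SE 0.34), and Extl1 by 0.92 (SE 0.59) and 0.56 (SE 0.54). The interaction of genotype with diet was 0.49 for Tenm4 (SE 0.48), -0.36 for Extl1 (SE 0.79) and 0.49 for Fam129a (SE 0.56), with adjusted p = 0.9999 for each by edgeR. These fits hold KO replicate 4 on HFD, which lay with the controls. Without it the KO diet difference was 0.46 for Tenm4, 0.86 for Extl1 and 0.48 for Fam129a. The interaction was then 0.76 for Tenm4 and 0.79 for Fam129a, and none of these was called. Among all genes, 27 were then called between diets in KO, against 2 with it.

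**Figure D4:**
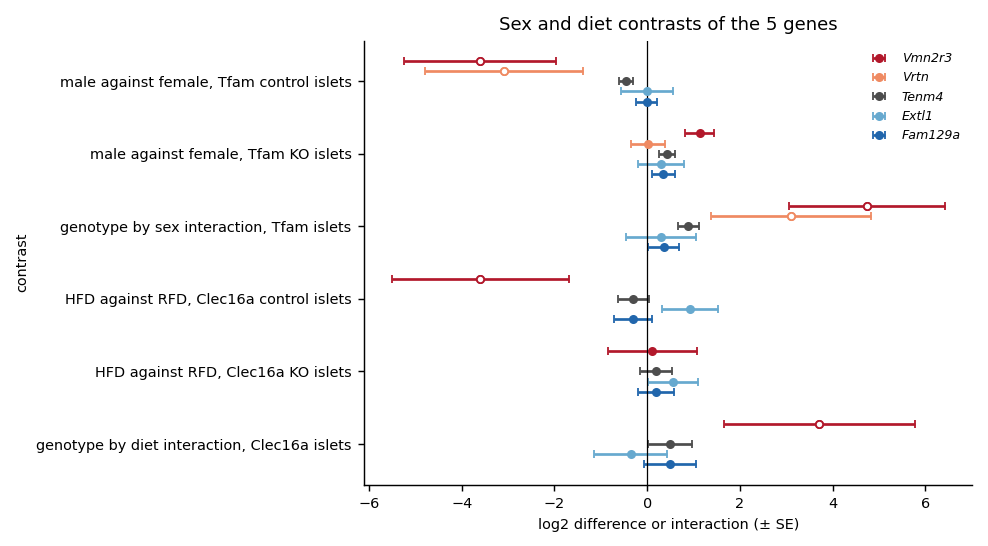
Log2 difference or interaction (horizontal axis, bars are ± SE) of each gene in the 6 sex and diet contrasts; Vrtn was tested only in the Tfam islets, and open points mark values of Vmn2r3 and Vrtn that involve a control group at or near 0 and so depend on the fit's prior count. No member passed an adjusted p of 0.05 in edgeR, and the filled points farthest from 0 in units of their SE are the interaction with sex of 0.89 for Tenm4 and the sex difference of 1.13 for Vmn2r3 in Tfam KO islets.

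The stress response was measured beside the members. Of the 31 listed genes, all tested, the calls higher numbered 29 in Tfam KO islets, 24 in Clec16a KO on RFD, 23 on HFD, 17 in Mfn DKO liver and 27 in Tfam KO liver, with 0 lower calls by edgeR in each. Among all genes 11.6%, 3.99%, 5.62%, 5.23% and 18.1% were called higher in these comparisons. At an unadjusted p under 0.05, 1 was lower in each liver comparison and 0 in each islet comparison, and DESeq2 called the same numbers lower. The median log2 fold changes were 1.22, 1.03, 0.91, 1.36 and 2.94, against -0.01, 0.00, 0.00, 0.02 and 0.03 over all genes. Ddit3, a transcription factor of prolonged stress, rose by 2.80 (SE 0.14, adjusted p = 1.21e-09, edgeR) in Tfam KO islets, Trib3, a pseudokinase, by 5.25 (SE 0.30, adjusted p = 3.66e-09) and Aldh1l2, a mitochondrial folate enzyme, by 2.44 (SE 0.14, adjusted p = 5.76e-09). A score for each library, the mean log2 CPM of the 31 genes, was 5.59 to 5.90 in Tfam KO islets against 3.54 to 4.24 in controls. It was 5.38 to 5.54 in Clec16a KO on RFD, 4.62 to 4.71 in Mfn DKO liver against 2.59 to 3.06 in control liver, and 5.72, 6.50 and 4.33 in Tfam KO livers 1 to 3.

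The libraries with low members also had low scores. In Clec16a KO on HFD replicate 4 scored 3.85, just under the 3.86 to 4.34 of the controls, against 5.70 to 5.99 in the other 4. Its members lay at 0 (Vmn2r3), 0 (Vrtn), 7.93 (Tenm4), 0.262 (Extl1) and 7.44 (Fam129a) normalized CPM, against 0.230 to 1.53, 0.182 to 1.09, 49.2 to 63.2, 1.10 to 2.95 and 69.0 to 102 in the other 4. Liver Tfam KO replicate 3 had the lowest score of its group and the lowest levels of 4 members, as given above. The score starts lower in liver, at 2.59 to 3.06 in controls against 3.54 to 4.24 in Tfam control islets, so its levels are not compared across tissues. The median log2 fold change of the listed stress genes was 1.36 in Mfn DKO liver and 1.22 in Tfam KO islets. Vmn2r3 was higher in Mfn DKO livers, at 17.8 to 66.0 TPM, than in any Tfam KO islet library, at 0.833 to 2.40 TPM. Vrtn was at 0 in those livers. The share of counts from mitochondrially encoded genes was 0.187% to 0.253% in female Tfam KO islets against 1.04% to 1.34% in their controls, and 0.238% to 0.242% against 1.20% to 1.305% in males. In liver it was 2.04% to 2.80% in Mfn DKO and 0.158% to 0.551% in Tfam KO against 3.38% to 4.62% in controls. In the Clec16a islets it overlapped, at 0.970% to 2.16% in KO against 1.31% to 2.999% in controls on RFD and at 1.73% to 2.26% against 1.38% to 3.06% on HFD.

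**Figure D5:**
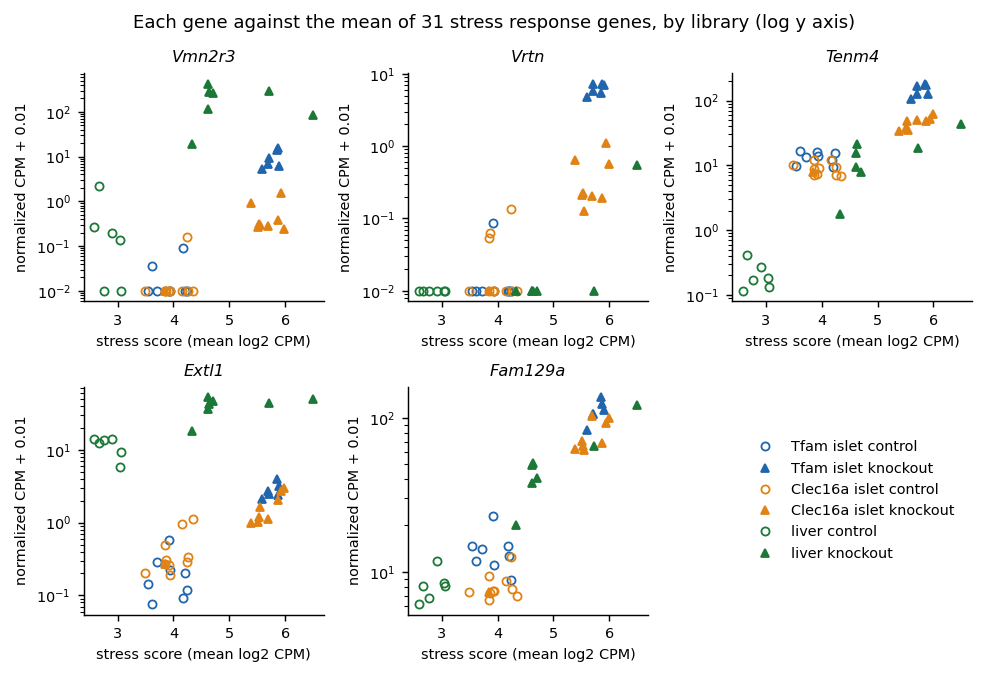
Normalized CPM plus 0.01 of each gene (log vertical axis) against the stress score, the mean log2 CPM of 31 genes (horizontal axis), for 46 libraries; colours mark the experiment, open circles controls and filled triangles knockouts. Tenm4, Extl1 and Fam129a are mostly higher where the score is higher within each experiment. Extl1 in Clec16a KO HFD replicate 3 (1.10 CPM, score 5.70) lies below HFD control replicate 1 (1.12 CPM, score 4.34). Vrtn stays at 0 in all Mfn DKO livers, and Vmn2r3 reaches its highest value there. The score starts lower in control livers (2.59 to 3.06) than in Tfam control islets (3.54 to 4.24).

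The genes whose pattern was most like that of each member were found over the 46 libraries, by Pearson r of log2(CPM + 0.1) after subtracting the mean of the matching controls, among 16294 genes. These values describe libraries that share tissue, depth and knockout, and carry no test. For Vmn2r3 they were Lonp1, the main protease of the mitochondrial matrix (r = 0.940), Cyb5r1 (0.919) and Nupr1, a stress-induced transcription regulator (0.917). For Vrtn they were Ccdc7b (0.964), Hfe, which takes part in iron sensing (0.952), and Snx31 (0.947). For Tenm4 they were 2410006H16Rik (0.9504), Cyb5r1 (0.932) and Psat1, an enzyme of serine synthesis (0.927). For Extl1 they were Wipf3 (0.911), Nfe2l1 (0.902) and Trib3 (0.888), and for Fam129a Adm2 (0.953), Rcc2 (0.934) and Gdf15, a secreted stress hormone (0.932). Between members, r was 0.944 for Tenm4 and Vmn2r3 and 0.444 for Vmn2r3 and Vrtn. With a pseudocount of 1 CPM the genes nearest to Vmn2r3 were Snd1, Arhgef2 and Rpl13a instead, and r between Tenm4 and Vmn2r3 was 0.809. Between Vmn2r3 and Vrtn r was then 0.264. The other lists changed in part. They were Ccdc7b, Ubap1l and Snx31 for Vrtn, and Trib3, 2410006H16Rik and Eif3c for Tenm4. For Extl1 they were Trib3, 2410006H16Rik and Gtpbp2, and for Fam129a Rcc2, Trib3 and Gdf15.

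Neighbouring genes were read against the background of all genes. Of the 30 nearest annotated neighbours, 3 on each side of each member, 11 or 12 were tested in each comparison. Calls higher and lower numbered 2 and 1 in Tfam KO islets, 0 and 1 in Clec16a KO on RFD, 0 and 0 on HFD, 1 and 1 in Mfn DKO liver and 2 and 2 in Tfam KO liver, which is near the shares of all genes called that are given above. On HFD, 1 was higher and 3 lower at an unadjusted p under 0.05, and DESeq2 called 0. None of the 6 neighbours of Vmn2r3 could be tested, and the highest of them, Vmn2r2, reached 0.143 CPM. Gab2, an adaptor protein 170493 bases beyond Tenm4, rose by 0.94 (SE 0.10, adjusted p = 8.34e-06, edgeR) in Tfam KO islets and by 1.304 (SE 0.35, adjusted p = 0.016, edgeR) in Tfam KO liver. Slc30a2, a zinc transporter 1888 bases from Extl1, rose by 2.49 (SE 0.43, adjusted p = 0.0050, edgeR) in Mfn DKO liver, while it reached at most 1.31 CPM in any library.

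Rises from near 0 were counted over all genes. The members were chosen for such a rise, so the places of Vmn2r3 and Vrtn in this count are not a finding. In Tfam KO islets 13 genes had a control mean under 0.1 normalized CPM and a KO mean of at least 1, of 36575 genes under that control limit. By KO mean the first 5 were Vmn2r3 (9.54), Vrtn (6.24), Snx31 (4.84), Ubap1l (4.56) and the olfactory receptor gene Olfr330 (3.09). The same count was 36 in Clec16a KO on RFD, 8 on HFD, 12 in Mfn DKO liver and 56 in Tfam KO liver, none of which holds a member among its first 5. In those liver comparisons Vmn2r3 began above the limit, at a control mean of 0.461. Some genes in these counts were high in part of the KO libraries only. Akp3 in Clec16a KO on RFD had a mean of 10.2 CPM, an SD of 20.4 and a lowest library at 0.

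Sequencing lane, in the Clec16a islets, and the level of Xist in the livers, whose sex is not labelled, were spread over the groups and could be looked at within. The members were chosen on these values, so the counts are a description. In lane 7 the 4 tested members did not overlap between Clec16a KO and control on RFD (3 KO and 2 controls), nor did 15.5% of all tested genes in that direction, and the same held on HFD (2 KO and 3 controls), against 20% of genes. In lane 8 all 4 were apart on RFD, with 1 KO and 2 controls, against 40.7% of genes. On HFD, with 3 KO and 3 controls in lane 8, the low replicate 4 was among the KO and 0 of 4 were apart, against 6.69% of genes. Livers were split by whether Xist, a transcript of the inactive X chromosome, exceeded 1 CPM. Each set held 3 controls and 2 Mfn DKO livers, which lay above the controls for the 4 tested members, against 22.7% of genes in the set with Xist and 29.0% in the other. Tfam KO livers, 2 in the set with Xist and 1 in the other, did so for the same 4 members, against 19.3% and 41.9% of genes.

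Markers of other cells moved with some of these groups, and only some of the marker sets are given here. The 7 markers of smooth muscle and fibroblasts summed to 60.9 to 66.5 CPM in male Tfam KO islets against 32.7 to 42.8 in their controls, to 60.05 to 110 in Clec16a KO on HFD against 42.8 to 64.2, to 60.5 to 97.2 on RFD against 44.6 to 52.9, and to 71.7 to 93.4 in Mfn DKO livers against 35.9 to 61.2. In female Tfam KO islets they overlapped their controls, at 31.998 to 49.8 against 27.3 to 39.7. Tfam KO livers also overlapped theirs, at 58.6 to 87.5 against 35.9 to 61.2. The log2 fold changes in female Tfam KO islets were 3.14 for Tenm4, 3.68 for Extl1 and 2.88 for Fam129a, against 4.03, 3.98 and 3.23 in males. Vmn2r3 and Vrtn are left out here because their male controls were all at 0. The part of smooth muscle cells and fibroblasts in the members' values was not tested in any group. In male Tfam KO islets (2 libraries) the 4 neuron markers summed to 48.3 to 59.2 CPM against 34.4 to 36.8 in controls. The 4 Schwann cell markers summed there to 20.8 to 29.04 against 16.8 to 18.1. In female islets both sets overlapped their controls. Macrophage markers, 5 in all, were lower in Clec16a KO on RFD, at 88.9 to 129 CPM against 137 to 173. On HFD they overlapped, at 88.3 to 130 against 95.9 to 164. The 5 β-cell markers were lower in Tfam KO islets, at 91277 to 125996 CPM against 171545 to 270497 in controls. The 5 hepatocyte markers summed to 72736 to 90874 CPM in Mfn DKO livers and 21435 to 90015 in Tfam KO livers against 88763 to 133714 in control livers. Alb, the albumin gene, lay at 43469, 17648 and 71777 normalized CPM in Tfam KO livers 1 to 3 against 58854 to 104525 in controls. Replicate 2, with the lowest Alb, had the highest Tenm4, Extl1 and Fam129a of that group, and replicate 3, with the highest Alb, had the lowest. Vmn2r3 had another order, at 293, 83.1 and 18.9 normalized CPM in replicates 1 to 3. The part of these changes in the members' values was not tested. In whole islets and livers, fewer cells of a type and less RNA per cell cannot be told apart.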

How the data were processed

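RNA was sequenced from 33 islet and 13 liver libraries of mouse, titled biological replicates. Per the file headers, each table gives raw counts, TPM and CPM for 55487 genes. Tests ran on the deposited counts, all whole numbers. The authors' CPM is each count over its library total and was not used, and the authors' TPM served only to compare levels between genes or experiments. Per the submitters' processing notes, the tools were FastQC, STAR 2.6.1b, RSEM 1.3.1, featureCounts, MultiQC and DESeq2 and the build GRCm38, with no roles stated. The annotation and strand setting are not given in the sources used here; 55141 gene identifiers were found in GENCODE M21.

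Each experiment was fitted alone with edgeR 4.0.16 (R 4.3.3): TMM, filterByExpr on the group, 1 mean per group (sex additive for Tfam islets over both sexes), quasi-likelihood F-test, Benjamini-Hochberg adjustment over all genes, calls at 0.05. Standard errors are the log2 change over the square root of F. Normalized CPM is the count over the TMM-scaled total, scaled separately in each experiment. A count of 0 was read as allowing 3 counts. Intervals are 95% exact (Clopper-Pearson) and, like floors, cover counting error only. The scripts were tested on simulated data. Alternatives were DESeq2 1.42.0 (size factors, Wald test), no filter, each library left out, the replicate number as a block, lane (from file names), Xist level, no sex term and another pseudocount.

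The members and lists were chosen with earlier results of these data known. Named were all 5 members, relatives called in a comparison (at most 3 per list by adjusted p), the 3 neighbours on each side, the 3 most alike genes, at most 5 genes with a rise from near 0, and at most 3 stress genes. Markers of 12 cell types were summed per library.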

Additional observations from a re-analysis of the deposited data

Results flagged for a closer look

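In groups of 4 to 10 libraries, 40 sets of member values were examined for a library whose gap to its nearest neighbour is large against the range of its group. Chance alone marks about 5% of sets of ordinary measurements. That rate does not hold for members near 0: a set with all libraries but 1 at 0 is always marked (3 sets), and a set with all at 0 never is (3 sets). Marked were 8 library values, most of them at few counts. For Vmn2r3 these were Clec16a control RFD replicate 4 (0.152 normalized CPM, 6 counts, with the other 3 at 0), Clec16a KO HFD replicate 2 (1.53, 28 counts), Clec16a KO RFD replicate 1 (0.915, 16 counts) and liver control replicate 6 (2.19, 88 counts, nearest control 0.264). For Vrtn they were female Tfam control replicate 3 (0.0757, 4 counts) and Clec16a control HFD replicate 6 (0.0534, 2 counts), each in a group otherwise at 0. For Tenm4 they were Clec16a control HFD replicate 2 (12.3, nearest 8.89) and Clec16a KO HFD replicate 4 (7.93, nearest 49.2). In that last library Vmn2r3 and Vrtn were at 0 and Extl1 and Fam129a were also the lowest of the group, at 0.262 and 7.44 normalized CPM. Liver control replicate 6 was also the highest control for Tenm4, at 0.398 normalized CPM.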

How the results depend on the processing

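The members' 601 refitted log2 fold changes all kept their sign, and 580 moved by less than 1 within-group SD. The members were chosen on these comparisons, and some refits left out a library outside the comparison, so these counts are no support for the rises. Of the 542 refitted member tests, 540 stayed on the same side of the threshold; Vmn2r3 between the sexes of Tfam KO islets passed it with DESeq2 (1.13) and with no filter (1.14). With DESeq2, Vmn2r3 was 12.55 and Vrtn 11.30 in male Tfam islets. Leaving out 1 library at a time, Vmn2r3 ran from 9.20 to 10.74 in Tfam islets (7.94 to 9.40 in females, 12.87 to 13.04 in males), 2.59 to 6.75 in Clec16a islets on RFD, 5.79 to 7.06 on HFD, 8.94 to 11.19 in Mfn DKO liver and 6.83 to 10.13 in Tfam KO liver. Vrtn ran from 9.12 to 11.74 in Tfam islets (8.23 to 11.73 in females, 11.47 to 11.90 in males) and Extl1 from 3.41 to 4.48 in female ones. The values of Vmn2r3 and Vrtn in males and of Vmn2r3 on HFD have all controls at 0 and are set by the prior count, so their ranges say nothing of stability. The highest values of Vrtn in all and in female Tfam islets, and of Vmn2r3 on RFD, also come from refits with all controls at 0. The cause was not tested. Of 291 refits of the other named genes, 284 kept their call and 7 fell short of it: Vmn1r90 in Mfn DKO liver without each Mfn DKO library, and Vmn1r90, Vmn1r-ps32 and Ndst1 with the block.

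Counts of called genes over all genes moved more. Leaving out 1 library they ran from 1336 to 2626 in female and 578 to 2541 in male Tfam islets, 523 to 2015 in Clec16a islets on RFD, 786 to 3369 on HFD, 686 to 3379 in Mfn DKO liver and 2504 to 7330 in Tfam KO liver. The lowest were without female KO replicate 3, male KO replicate 2, RFD control replicate 3, HFD KO replicate 3, Mfn DKO replicate 1 and liver Tfam KO replicate 2, in that order. The highest on either diet was without HFD KO replicate 4, and that in Mfn DKO liver without liver Tfam KO replicate 2, which shares the fit. For sex they ran from 15 to 362 in controls, 7 to 26 in KO and 0 to 1 for the interaction, and for diet from 3 to 12 in controls and 0 to 31 in KO. With DESeq2 the counts were 2708 in male Tfam islets, 2870 in Mfn DKO liver, 985 and 185 for sex in control and KO, 34 for its interaction, 54 and 42 for diet in control and KO and 20 for its interaction. With no filter they were 158 for sex in KO, 30 for its interaction and 6 for diet in KO. With lane as a covariate the diet count in controls was 3.

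Same-numbered libraries of different groups had median correlations of 0.0752 over 16 pairs in Tfam islets, -0.0119 over 25 in Clec16a islets and 0.0939 over 10 in livers. Of these pairs 6, 3 and 5 were above 0.1, and the highest were 0.259, 0.310 and 0.398. Pairs with other numbers had medians of -0.0189, -0.0100 and -0.0453. The medians were alike in Clec16a islets. In Tfam islets and livers these few, weak correlations cannot decide whether the numbers pair the libraries. With the replicate block the counts were 975 in Clec16a islets on HFD, 169 in Mfn DKO liver, 395 in Tfam KO liver and 3 for diet in controls. Without it they were 1652, 1681, 4992 and 7. The replicate block gave 9.84 for Vmn2r3 in Tfam islets, 8.26 (female) and 11.90 (male) for Vrtn, 3.39 for Fam129a in male Tfam islets and 11.61 for Vmn2r3 in Mfn DKO liver. The fold changes of Vmn2r3 and Vrtn rest on few control counts, and their counting intervals do not cover the spread between libraries.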
